A study of Mus musculus with 10 samples.

Results

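Single-exon genes are transcribed without introns, so their RNA carries no exon junctions. N6-methyladenosine (m6A), a methyl mark on adenosine, is written on messenger RNA mainly by a complex built around METTL3, and it is known for shortening the life of many transcripts, those of pluripotency factors among them. In spliced messages the exon junction complexes left near each splice site are known to keep the mark away from short internal exons, so that it gathers in long exons and around stop codons. An intronless message has no such complexes.

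The genes described here are the 349 whose only exon in the window files is exon 1, with at least 10 windows and a mean of at least 1 RPKM over the 2 WT input columns, after names of microRNAs, small nucleolar RNAs, histones and one lincRNA set were left out. They hold 15510 of the 1510223 windows and are 349 of the 30419 genes. Of 7234 genes with 1 exon, 2736 had 10 windows, 378 of these also reached 1 RPKM, and 29 were removed by name. The rule uses the WT level but no IP value and no difference between genotypes. *Peg12* (1.00 RPKM) and *Cited4* (1.01 RPKM) lay just inside the level threshold, and *B3galt4* and *1110032F04Rik* (both 0.982 RPKM) just outside it. At the window threshold, 4 members had 10 windows and 5 otherwise eligible genes had 9.

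J1 mouse embryonic stem cells, an established line kept here without feeders, gave 10 libraries: Mettl3 KO m6A IP (2) and KO input (2), WT m6A IP (2) and WT input (2), and a first IP and first input (1 each) whose genotype is not labelled. Total RNA was fragmented, precipitated with an m6A antibody and sequenced with its strand kept, and inputs skipped the precipitation. The labels call the genotypes mettl3 KO and mettl3 WT, do not say how *Mettl3* was altered or from how many clones the KO cells came, and do not say that replicates were separate cultures. The p-values below can therefore reflect no more than library-to-library spread, part of which may be technical.

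*Mettl3* itself averaged 3.14 and 3.38 units of input coverage per window in KO, against 4.79 and 4.67 in WT, a difference of -0.43 ± 0.07 on the log2(coverage + 1) scale (SE, limma adjusted p = 0.00259). It was lower in KO but far from absent. With the first IP and the first input each set to 1, depth was 0.0606 to 0.0644 in KO IP and 0.0712 to 0.159 in WT IP, and 0.284 to 0.516 in KO input and 0.438 to 0.457 in WT input. No IP coverage was seen in 45.2% and 35.8% of the members' windows in KO, against 18.3% and 34.7% in WT. All 9 stem cell markers were at 1 or more in every input, and their summed coverage was 2233 and 2090 in KO and 2759 and 2842 in WT. Most of that gap lay in *Dppa5a*, at 1121 and 1029 in KO and 1525 and 1539 in WT, while *Pou5f1* was at 252 and 248 in KO and 246 and 260 in WT. Neural markers summed to 26.5 and 27.4 in KO and 25.9 and 27.6 in WT, with *Nes* at 3.15 and 2.67 in KO and 0.90 and 0.68 in WT and *Neurod1* at 2.501 and 2.98 in KO and 4.40 and 5.43 in WT. Of the trophectoderm markers, *Krt8* and *Krt18* summed with the rest to 19.6 and 20.6 in KO and to 7.35 and 6.93 in WT, while *Cdx2*, *Elf5* and *Hand1* stayed under 1 in all libraries. Fibroblast markers summed to 2.43 to 2.75 in KO and 2.53 to 2.85 in WT, with 6 of 7 under 1 throughout.

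By the biotype in RefSeq (GRCm38.p6), matched through the current symbol (223) or an older one (33), the members were 184 protein-coding genes, 54 pseudogenes, 18 long noncoding RNAs and 93 without an entry, of which 70 carry a UCSC-style name starting with uc. A window held a median of 49.5 gene bases in the 184 coding members. Of 256 members placed in RefSeq, 63 lie inside the span of another gene, and it is not stated whether coverage was kept per strand, so that RNA of host and member cannot be told apart there. In the first input, 54 members had less than 10% of their mean WT coverage, 24 pseudogenes, 23 without an entry and 7 coding genes. The coverage headers of the first IP and input hold the word unique, and those of the KO and WT libraries do not. How reads with several positions in the genome were placed is not stated beyond this, and its part in these values was not tested.

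The coding members stood far above the median gene of the same library pair in the m6A IP, in KO as in WT. Over all windows of a gene, log2((IP + 1)/(input + 1)), set to 0 at the median of the 10778 genes tested in each library pair, had a median over the 184 coding members of 1.86 and 1.78 in the KO pairs and of 1.67 and 1.63 in the WT pairs. For 9950 multi-exon coding genes under the same filters it was -0.03 in each of the 4 pairs. Each pair has its own 0, so a change of IP over input shared by all genes cannot be seen in these values. With limma (adjusted p under 0.05), 154 of 184 coding members lay above the median gene in KO and 15 below, and 151 lay above in WT and 16 below. Of all genes tested, 37.7% lay above and 35.5% below in KO (73.2% in either direction), and 38.5% above and 36.3% below in WT (74.8%). At least 2-fold above the median gene were 138 coding members in KO (75%) and 133 in WT (72.3%), and at least 2-fold below it were 12 in KO and 14 in WT. Of the multi-exon coding genes 22.7% in KO and 23.9% in WT were at least 2-fold above, and 20% in KO and 23% in WT at least 2-fold below.

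The other classes lay on the opposite side. Pseudogenes had medians of -0.90 and -0.81 in KO and -1.20 and -1.02 in WT, with 7 of 54 above and 35 below the median gene in KO, and 7 above and 37 below in WT. Members without an entry had medians of -0.87 and -0.85 in KO and -1.13 and -1.26 in WT, with 58 of 93 below in KO and 68 in WT. The 18 noncoding RNAs were mixed, with 7 above and 7 below in KO, and 5 above and 9 below in WT. Over all 349 members these add up to 185 above and 115 below in KO, and 178 above and 130 below in WT. Without the 54 members nearly empty in the first input, the pseudogenes still had a median of -0.54 in KO and -0.91 in WT (n = 30), and the coding members 1.91 in KO and 1.72 in WT (n = 177).

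**Figure D1:**
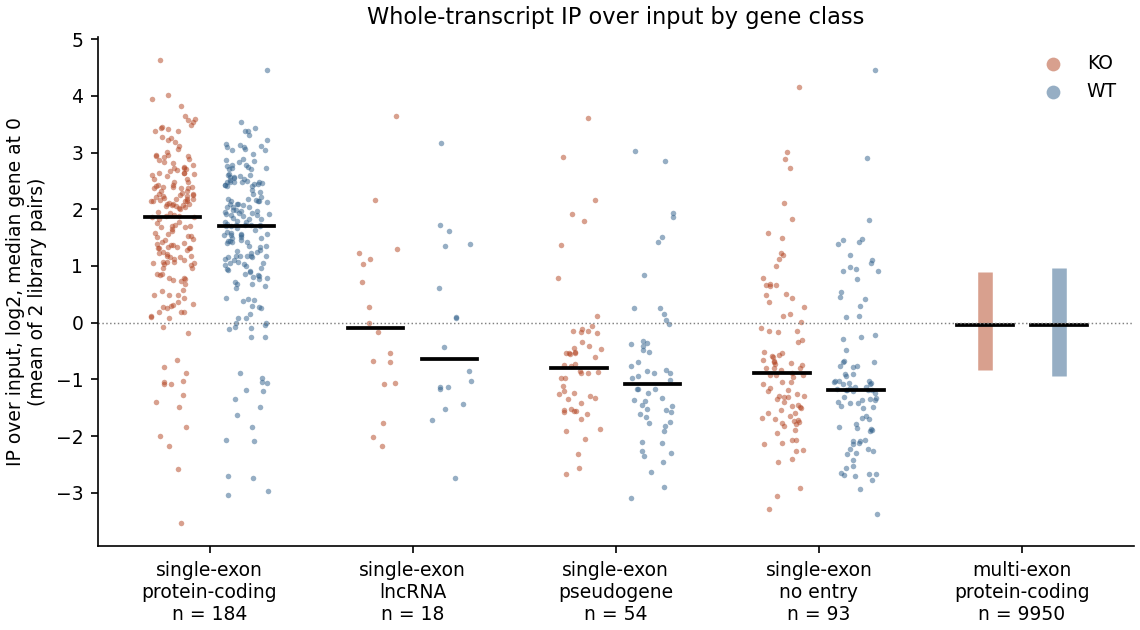
Whole-transcript IP over input (log2, median gene at 0, mean of the 2 library pairs of a genotype) for each single-exon gene by RefSeq class, KO left of WT, with the class median as a black line. For multi-exon coding genes the coloured bar spans the quartiles. The coding members centre at 1.87 in KO and 1.71 in WT, while the pseudogenes centre at -0.80 in KO and -1.08 in WT.

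The distance between single-exon and multi-exon coding genes was set out by length, and against single exons of spliced genes. Coding members of 20 to 39 windows had a median of 1.88 in KO and 1.78 in WT (n = 65). In 2695 multi-exon coding genes whose longest exon had 20 to 39 windows, that exon alone had a median of 0.21 in KO and 0.44 in WT, and the other exons of the same genes had -0.76 in KO and -1.01 in WT. At 40 to 79 windows the members had 2.14 in KO and 1.91 in WT (n = 76), against 0.32 in KO and 0.37 in WT for longest exons and -0.59 in KO and -0.85 in WT for the other exons (n = 2097). At 80 or more windows the members had 1.47 in KO and 1.28 in WT (n = 27), against 0.38 in KO and 0.37 in WT for longest exons (n = 624). The order single exon, longest exon, other exons therefore held in these 3 length classes in KO and in WT. In the shortest class, 10 to 19 windows, the 16 members had 0.91 in KO and 0.40 in WT, and the longest exons 0.16 in KO and 0.36 in WT, so that in WT they were nearly level. These medians are descriptions without a test, and longest exons include last exons as well as internal ones.

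**Figure D2:**
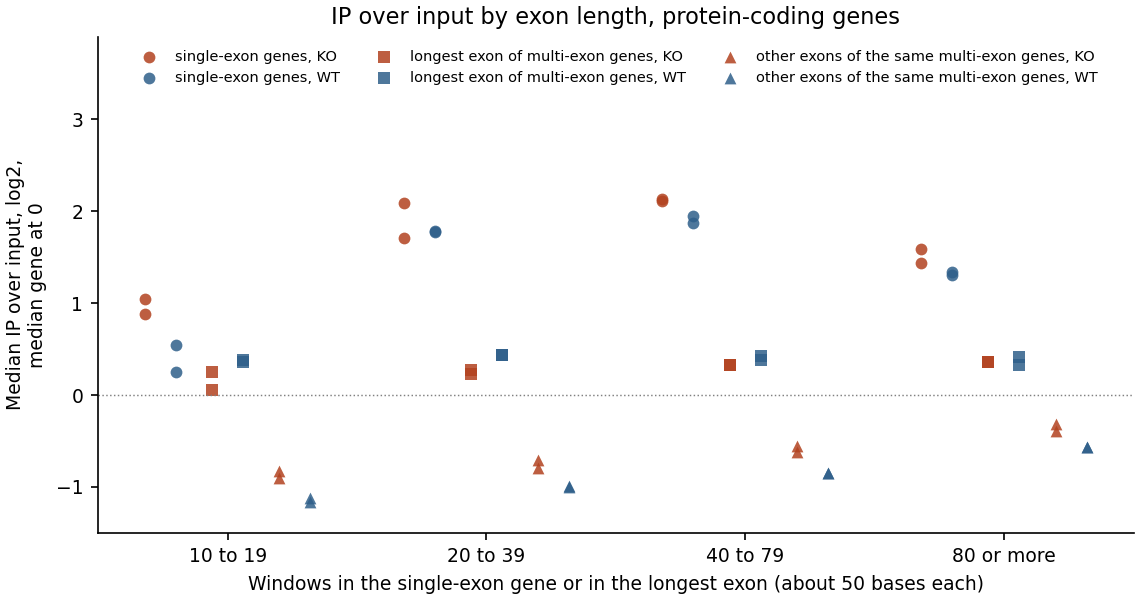
Median IP over input (log2, median gene at 0) by number of windows, 1 point per library pair, KO left of WT, for single-exon coding genes (circles), the longest exon of multi-exon coding genes (squares) and their other exons (triangles). At 20 or more windows the circles lie between 1.28 and 2.14, the squares between 0.21 and 0.44 and the triangles below 0 when the 2 pairs of a genotype are combined.

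The highest whole-transcript value among coding members belonged to *Exosc6*, a subunit of the RNA exosome. It was 4.63 in both KO pairs, against 4.55 and 4.38 in the WT pairs (limma adjusted p = 1.76e-06 in KO and 2.29e-06 in WT). Next came *Mocs3*, an enzyme of molybdenum cofactor synthesis and transfer RNA thiolation, at 3.92 and 4.10 in KO and 3.51 and 3.56 in WT. *Ndnl2* (*Nsmce3*), a subunit of the SMC5/6 complex, reached 3.59 and 3.48 in KO and 3.51 and 3.34 in WT. The variant histone gene *H2afx* (*H2ax*), which marks DNA breaks once phosphorylated and whose name does not start with Hist, had 3.34 and 3.41 in KO and 3.35 and 3.41 in WT. KO and WT overlapped in *Ndnl2* and *H2afx*, and KO lay above WT in *Exosc6* and *Mocs3*, without a call between genotypes in any of the 4. At the other end, *Acot10*, an acyl-CoA thioesterase gene, had -3.64 and -3.43 in KO and -2.54 and -3.38 in WT, and *Uchl4*, a ubiquitin hydrolase gene, had -2.19 and -2.98 in KO and -2.38 and -3.68 in WT. Their input coverage was 11.2 to 12.3 (*Acot10*) and 17.3 to 21.2 (*Uchl4*) units, and neither had an m6A region in the first IP. Whether reads of other loci add to this coverage was not tested.

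Along a transcript the signal rose in narrow peaks. A region here is a run of 2 or more neighbouring windows whose winscore reached 2 in the first IP. The winscore is the authors' log2 of the IP in a window over the gene's IP median, divided by the same for input, so it measures a peak against the rest of its own transcript. The first IP served only to find regions, so the KO and WT libraries measure them independently. Members held 255 regions in 160 of 349 genes, with 1 region in 89 genes, 2 in 51, 3 in 16 and 4 in *Sox11*, *Sowahc*, *Fzd7* and *Epm2aip1*. Coding members had a region in 139 of 184 genes (75.5%), against 58.0% of multi-exon coding genes. The share was higher in each length class: 43.8% against 11.3% at 10 to 19 windows, 63.1% against 34.3% at 20 to 39, 85.5% against 58.4% at 40 to 79 and 96.3% against 78.1% at 80 or more. Only 3 of 54 pseudogenes, 6 of 18 noncoding RNAs and 12 of 93 members without an entry had one. Regions could be found only where the first pair had coverage, and 24 of these pseudogenes and 23 of those without an entry were nearly empty in the first input. Among the rest, 3 of 30 pseudogenes and 11 of 70 members without an entry had a region.

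*Sox2*, the pluripotency transcription factor, shows the scale of these peaks. Its IP coverage was highest in window 28 of 50 from the 5′ end in all 4 libraries, at 15331 and 17674 units in KO and 17516 and 17515 in WT, over an input there of 135 and 115 in KO and 154 and 146 in WT. Both WT values lie between the 2 KO values. *Jun*, an AP-1 subunit and immediate early gene, peaked in window 42 of 64 in each library, at 341 and 433 in KO and 268 and 253 in WT, over an input of 3.23 and 2.55 in KO and 5.43 and 3.70 in WT. *Otud1*, a deubiquitinase, peaked in window 26 of 51 in each library, at 474 and 304 in KO and 326 and 270 in WT. *Exosc6* peaked in window 24 of 27, close to its 3′ end, at 2609 and 2689 in KO and 2612 and 2325 in WT. In each of these 4 transcripts the peak window was one and the same in all 4 libraries, and in *Jun* both KO peaks were above both WT peaks.

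**Figure D3:**
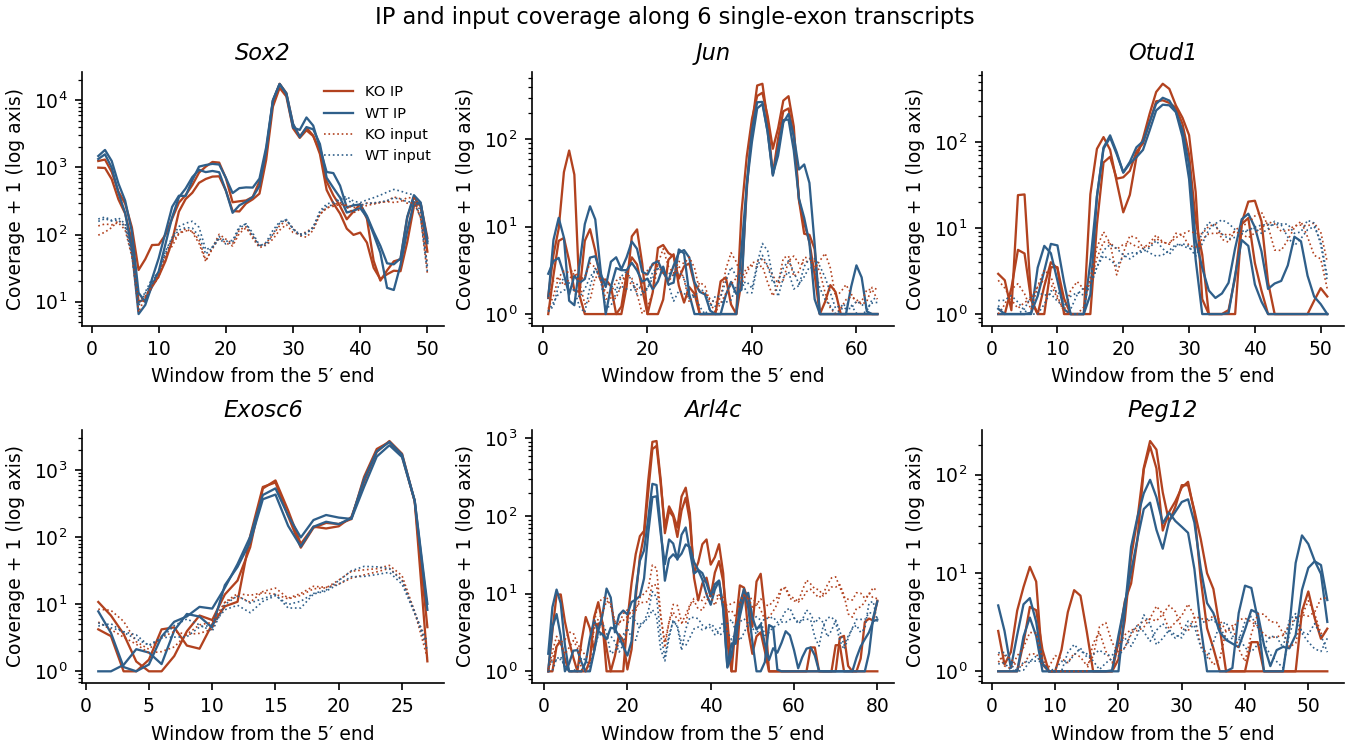
IP coverage (solid) and input coverage (dotted) per window from the 5′ end, plus 1 on a log axis, for 6 single-exon transcripts, 1 line per library, KO in red and WT in blue. In *Sox2* all 4 IP lines reach their highest point in window 28, and in *Arl4c* and *Peg12* the KO lines lie above the WT lines at the main peak.

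Most coding members with a region kept their peak window. The window of highest IP coverage lay within 1 window in the 2 KO libraries for 97 of 139 such members (69.8%) and in the 2 WT libraries for 109 (78.4%). Between a KO and a WT library it did so for 97 to 107 members, and in all 4 libraries for 81 (58.3%). Of 5768 multi-exon coding genes with a region, 49.9% kept it in all 4.

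Winscores of coding members were highest toward the middle of the transcript. Each of 151 coding members with a known strand was divided into 10 equal parts from the 5′ to the 3′ end. The mean winscore was highest in part 6 in 3 libraries and in part 5 in KO library 2, and in part 6 it was 0.89 and 0.75 in KO and 0.70 and 0.74 in WT. In part 10 it fell below 0, to -0.07 and -0.33 in KO and -0.21 and -0.49 in WT. Part 1 was lower than the middle as well, at 0.29 and 0.28 in KO and -0.23 and 0.00 in WT. Of its windows, 19.6% and 18.8% in KO and 7.30% and 15.1% in WT reached a winscore of 2. Windows at a winscore of 2 or more made up 32.9% and 31.8% of part 4 in KO and 26.9% and 30.9% in WT, against 10.2% and 7.87% of part 10 in KO and 5.29% and 6.58% in WT. On either strand the middle was high and part 10 below 0: the 79 plus-strand genes had 0.91 in KO and 0.85 in WT in part 6 and -0.08 in KO and -0.23 in WT in part 10, and the 72 minus-strand genes 0.72 in KO and 0.57 in WT in part 6 and -0.33 in KO and -0.47 in WT in part 10. In 8074 multi-exon coding genes no such drop toward the 3′ end was seen, with 0.70 and 0.55 in KO and 0.61 and 0.63 in WT in part 10. With the transcript divided into 3 equal parts, 60 of the 195 regions of coding members with a strand (30.8%) were centred in the 5′ part, 87 (44.6%) in the middle and 48 (24.6%) in the 3′ part. In 7745 regions of multi-exon coding genes these shares were 26.7%, 37.0% and 36.2%.

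**Figure D4:**
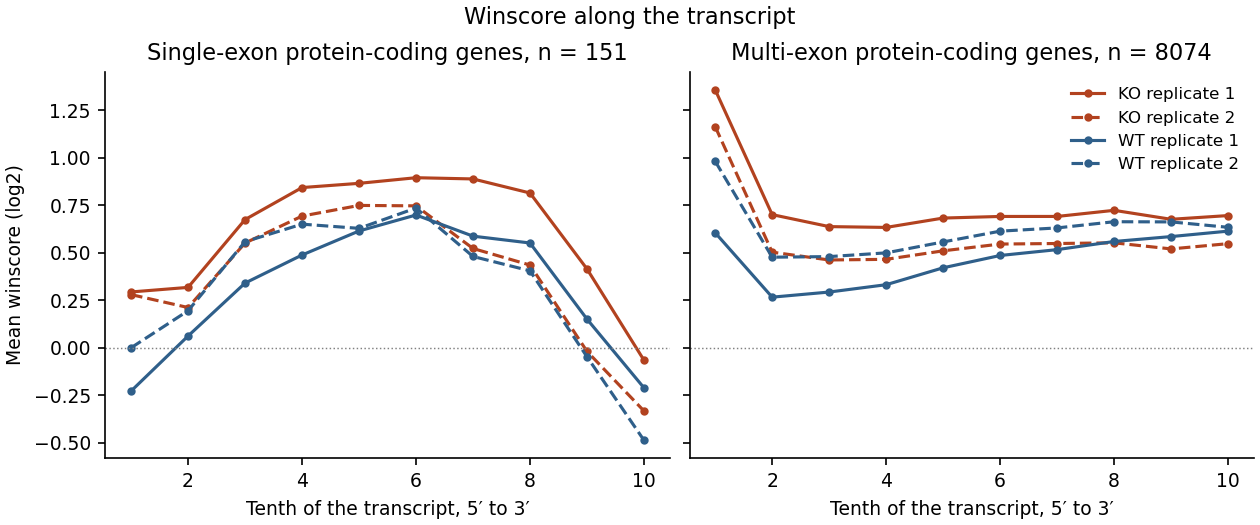
Mean winscore (log2) in each of 10 equal parts of the transcript from the 5′ to the 3′ end for single-exon (left) and multi-exon (right) coding genes, 1 line per library, KO in red and WT in blue. The single-exon lines are high in part 6 (0.89 and 0.75 in KO, 0.70 and 0.74 in WT) and lie below 0 in part 10.

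The regions stood out in KO as they did in WT. Their mean winscore had a median of 3.15 in KO and 2.996 in WT over the 255 regions, against 3.45 in KO and 3.56 in WT over all 10181 regions. It was above 0 (limma, adjusted p under 0.05) in 242 of 255 regions in KO, where 93.9% of all regions passed, and in 248 in WT, where 98.2% passed. None of the 255 was below 0 by the test, and of all regions 0.00982% were in KO and 0.00982% in WT. Measured directly as IP over input, relative to windows outside regions, the 228 member regions with an input coverage of at least 1 had a median of 4.71 in KO and 4.75 in WT, and all 9603 such regions 3.60 in KO and 4.07 in WT. Member regions were thus lower than others by the winscore and higher by the direct ratio. The winscore divides by the transcript's own IP median and the direct ratio does not. That median was 0 for 27.8% and 13.3% of member regions in KO and for 1.18% and 10.6% in WT. For regions of multi-exon genes the shares were 49.5% and 29.9% in KO and 2.22% and 23.6% in WT. A lower IP median gives a higher winscore. Its part in the comparisons of KO with WT and of members with other regions was not tested. Of the 255 regions, 190 (74.5%) stayed at a winscore of 2 or more in both KO libraries, 187 (73.3%) in both WT libraries and 166 (65.1%) in all 4. Of 9801 regions of multi-exon genes, 75.1% did so in both KO libraries, 87.5% in both WT libraries and 71.7% in all 4, so the members' share was lower in WT and in all 4.

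By winscore, the highest region of a coding member in WT was in *Purb*, a purine-rich element binding protein, at 5.99 and 7.53 in KO and 5.68 and 6.58 in WT. *Crebzf*, a bZIP transcription factor, had 5.90 and 5.85 in KO and 5.11 and 6.34 in WT. *Otud1* had 5.54 and 5.15 in KO and 4.94 and 6.25 in WT, and *Epm2aip1*, which encodes a partner of laforin, 6.66 and 4.84 in KO and 5.11 and 5.92 in WT. KO and WT overlapped in each of these 4 genes. The pseudogene *Rps4y2* led all member regions with 8.01 and 7.53 in KO and 7.53 and 6.86 in WT. In *Spin4*, a spindlin family gene, KO library 2 stood apart, with 4.81 and 1.78 in KO and 4.72 and 6.18 in WT at an input coverage under 1.

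None of the 255 regions differed between KO and WT by winscore and none of the 228 by direct ratio (limma, adjusted p under 0.05; 0% of all regions by either measure). At an unadjusted p under 0.05, 16 of 255 passed by winscore (8.27% of all regions did) and 20 of 228 by direct ratio (16.7% of all did). The winscore difference, KO minus WT, had a median of 0.18 over members and -0.08 over all regions, and the ratio difference a median of -0.14 over members and -0.45 over all regions. By direct ratio 144 of 228 member regions (63.2%) were lower in KO, against 78.2% of multi-exon regions, and by winscore 101 of 255 (39.6%), against 54.7%. The calls depended on which library was left out, and a fit without a KO library leaves 1 KO library, assumed to vary like the WT pair, which alone supplies the spread. Without KO library 1 the test called 2 member regions higher and 3 lower by winscore (1.96%, against 3.71% of all regions), and without KO library 2 it called 23 higher and 9 lower (12.5%, against 13.0% of all). By direct ratio it called 4 higher and 8 lower without KO library 1 (5.26%, against 8.02% of all), and 6 higher and 22 lower without KO library 2 (12.3%, against 24.1% of all). Leaving out either WT library gave 0 by both measures. In simulated data with 200 regions changed by 2 on the log2 scale, the fit found 37.5% of them by direct ratio and 16.5% by winscore, and none of those changed by 1. These 200 were changed up and down in equal number, and a change of many regions in the same direction was not simulated.

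The regions nearest to a difference did not pass the test. In the pseudogene *Gm5039* a 2-window region had winscores of 0.30 and 0.48 in KO, against 3.14 and 4.81 in WT (difference -3.59 ± 0.75 SE, limma adjusted p = 0.517). With the replicate number as a block the adjusted p of *Gm5039* was 0.0037, although same-numbered libraries did not deviate together, and without either KO library it passed as well. It rests on an IP coverage of 0 and 1.26 in KO and 19.2 and 34.4 in WT, and KO and WT did not overlap. A weak region at the 3′ end of *Peg12*, an imprinted gene of the GSK3-binding Frat family, had -1.52 and 0.45 in KO and 2.42 and 1.83 in WT (limma adjusted p = 0.549), while its other 2 regions lay near the middle. One had 4.45 and 4.32 in KO and 3.18 and 2.59 in WT. The other had 4.38 and 3.99 in KO, above the 2.40 and 3.32 of WT. In the other direction, the main region of *Arl4c*, an ARF family small GTPase, had 6.87 and 5.40 in KO, against 4.02 and 3.79 in WT (difference 2.23 ± 0.63 SE, limma adjusted p = 0.549). Its direct ratio was 6.15 and 5.65 in KO and 5.04 and 5.16 in WT, so the groups did not overlap by either measure. Without KO library 2 the winscore differences of *Arl4c*, *Frat1* and *Peg12* passed the test. *Frat1*, a GSK3-binding activator of Wnt signalling, had 5.89 and 5.05 in KO and 3.84 and 3.60 in WT by winscore, but 6.51 and 5.37 in KO and 5.15 and 5.85 in WT by direct ratio, where the groups overlap.

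Whole-transcript IP over input gave no call between genotypes either: 0 of 349 members and 0% of all genes passed the limma test, with an unadjusted p under 0.05 in 74 members, 66 of them higher in KO (13.9% of all genes, in either direction). Of 1425 multi-exon genes at that unadjusted p, 788 were higher in KO. The estimate was higher in KO in 244 of 349 members (69.9%), against 54.1% of multi-exon genes. The share was 69.0% in coding members, 64.8% in pseudogenes, 72.2% in noncoding RNAs and 74.2% in members without an entry. The median difference was 0.20 over members, against 0.04 over all genes tested. Without KO library 1 the test called 34 members higher and 6 lower (11.5%, against 6.56% of all genes), without KO library 2 it called 64 higher and 17 lower (23.2%, against 19.5% of all), and without either WT library none. In the fits without a KO library the WT pair again supplied the spread. *Eid2*, an inhibitor of the acetyltransferase EP300, had 4.01 and 3.87 in KO, against 2.97 and 2.80 in WT (difference 1.06, limma adjusted p = 0.248), but the difference was -0.25 with the median of the windows in place of their mean. *Chmp1b*, an ESCRT-III subunit, had 3.22 in both KO pairs, against 2.39 and 2.42 in WT (difference 0.81, limma adjusted p = 0.248). Lower in KO were *B930041F14Rik* (*Fndc10*), with 1.52 and 1.55 in KO and 2.16 and 2.18 in WT, and *Rpp25*, an RNase P and MRP subunit, with 2.24 and 2.00 in KO and 2.59 and 2.65 in WT. KO and WT did not overlap in these 4 genes, yet none passed with all 4 libraries. *Eid2*, *Chmp1b* and *B930041F14Rik* passed without either KO library, and *Rpp25* without KO library 1.

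Transcript levels in the inputs did differ. Of 345 members tested on log2(input coverage + 1), 87 rose in KO (25.2%) and 47 fell (13.6%) by limma at an adjusted p under 0.05, where 13% of all 11211 genes rose and 13.6% fell. The rises were mostly of coding members, 64 of 181 (35.4%), with 24 falls (13.3%), against 11.9% rises and 13.4% falls among 9751 multi-exon coding genes. Pseudogenes had 8 rises and 5 falls of 54, noncoding RNAs 4 and 2 of 17, and members without an entry 11 and 16 of 93. The counts leaned on the WT libraries: without WT library 1, 46 members rose and 33 fell (36 and 16 coding), and without WT library 2, 64 rose and 27 fell (49 and 15 coding), 22.9% and 26.4% of members in all, against 15.5% and 17.2% of all genes. In these fits the KO pair supplied the spread. The test took genes with a coverage of at least 1 in at least 2 of the 4 libraries. Membership asks for a level in WT only, so a low gene can enter through WT alone. With no filter on low values 18 rose and 9 fell. KO and WT libraries did not overlap in 232 of 345 members (67.2%), near the 65.7% of all genes, so that count says nothing about these members. The stem cell marker sum was lower in the KO inputs, although *Utf1* was higher (106 and 95.8 in KO, 78.0 and 83.2 in WT). *Krt8*, *Krt18* and *Nes* were higher in KO, *Neurod1* and *Sox1* were lower, and the neural marker sums of KO and WT overlapped. The part of these markers in the input differences was not tested. Fewer cells of a kind and less RNA per cell cannot be told apart in such bulk libraries.

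The shares were set out by length, without a test of the difference between length classes. Among coding members of 10 to 19, 20 to 39, 40 to 79 and 80 or more windows, 50%, 47.6%, 25.3% and 25.9% rose, and 31.3%, 7.94%, 14.7% and 11.1% fell. The shortest class holds 16 genes, of which 8 rose and 5 fell. Among multi-exon coding genes 25.7%, 18.5%, 11.1% and 7.21% rose, and 7.63%, 11.8%, 13.3% and 15.2% fell. The share of rises was similar in coding members with a strong m6A IP and in those near the median gene: 48 of 131 with a WT value of 1 or more (36.6%) and 14 of 36 between -1 and 1 (38.9%). In the 14 coding members at -1 or less, 2 rose and 2 fell. Among multi-exon coding genes the shares of rises were 12.5%, 12.8% and 9.19% in the same 3 groups. The WT value divides by the same WT input from which a rise is measured. Group and rise are therefore not independent, and no conclusion is drawn from these shares.

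The largest rise was that of *Mcts2*, an imprinted retrogene copy of *Mcts1* that lies inside another gene. Its input coverage was 26.7 and 30.5 in KO, against 7.79 and 9.41 in WT (difference 1.63 ± 0.09 SE on the log2 scale, limma adjusted p = 7.91e-06). *Arl4c* had 6.52 and 6.38 in KO, against 2.55 and 2.52 in WT (1.08 ± 0.07 SE, limma adjusted p = 1.43e-05). *Cldn3*, a claudin of tight junctions, had 5.95 and 6.37 in KO, against 2.82 and 2.65 in WT (0.94 ± 0.07 SE). The 3 genes lay more than 2-fold above WT in both KO libraries. *Gm5617* (11.03 and 11.5 in KO, 5.90 and 6.24 in WT), *Ndn*, which encodes the imprinted protein necdin (3.99 and 4.16 in KO, 1.95 and 2.26 in WT), and *Tmem203* (6.66 and 7.09 in KO, 3.895 and 3.78 in WT) followed.

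Among the falls, *D1Pas1*, a DEAD-box helicase gene known from the testis, had 1.505 and 1.49 in KO, against 3.29 and 3.61 in WT (-0.83 ± 0.08 SE, limma adjusted p = 9.02e-05). *E130012A19Rik* (*Epop*), which encodes a partner of Polycomb repressive complex 2 and elongin, had 24.5 and 24.1 in KO, against 37.2 and 40.4 in WT (-0.65 ± 0.07 SE). *Irf2bpl* had 11.2 and 10.8 in KO and 16.7 and 18.4 in WT. *H2afx* had 71.9 and 63.9 in KO and 95.1 and 98.8 in WT. KO lay below WT in every library of these 4 genes, which the choice of named genes required. The pseudogene *Gm5424* (51.4 and 35.4 in KO, 75.7 and 76.8 in WT) and *Gm14511* (*Fthl17c*), a ferritin heavy chain-like gene, also fell. *Gm14511* had 6.82 and 6.89 in KO and 9.86 and 10.6 in WT. Its family members *Gm5634*, *Gm14458*, *Fthl17* and *Gm5635*, looked at after its value was seen, fell too (limma adjusted p of 0.00224 to 0.0271). They are close copies that share reads, and 4 of the 5 were near 0 in the first input, so they do not count as separate results. In the deposited RPKM columns, of which those labelled KO input follow the KO IP, *D1Pas1*, *E130012A19Rik*, *Irf2bpl*, *H2afx* and *Gm14511* had differences above 0. With no filter on low values *Gm5424* (adjusted p = 0.0941) and *H2afx* (adjusted p = 0.0502) no longer passed.

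**Figure D5:**
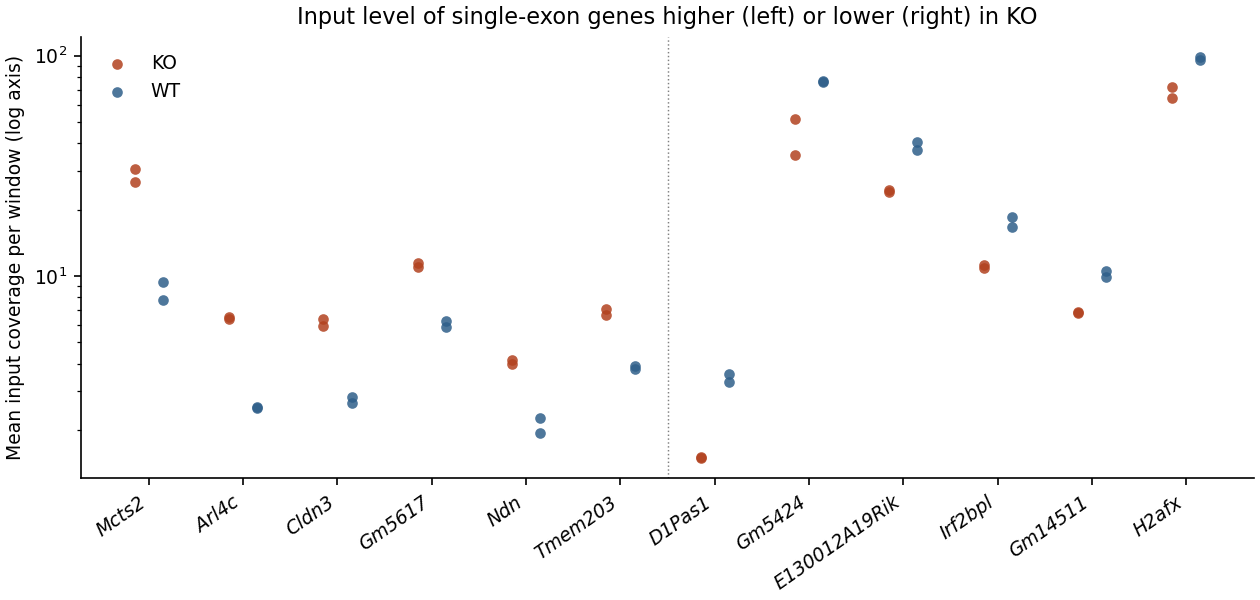
Mean input coverage per window (log axis) in each library for the 6 single-exon genes with the largest rise in KO (left of the dotted line) and the 6 with the largest fall, KO left of WT. The genes were chosen among those whose KO and WT libraries do not overlap, so the points lie apart by choice. *Mcts2* reads 26.7 and 30.5 in KO against 7.79 and 9.41 in WT.

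Intronless transcription factors had a median IP over input of 1.96 in KO and 1.85 in WT, near the medians of all coding members. Of 33 listed, 12 were members, 11 lay above the median gene in KO and the same number in WT, and 10 had a region. Input levels of 6 of the 10 tested rose and 1 fell, with a median difference of 0.33. Of all 11211 genes 13% rose and 13.6% fell, and of coding members 35.4% rose and 13.3% fell. These shares belong beside the input counts of each list below, and no list was tested against them. *Olig1*, a basic helix-loop-helix factor of oligodendrocytes, had 24.1 and 24.7 in KO, against 15.7 and 16.8 in WT (0.56, limma adjusted p = 0.000328). *Cebpb*, a bZIP factor of immune and fat cells, had 4.12 and 4.52 in KO and 2.49 and 2.79 in WT, and its IP over input was 3.48 and 3.79 in KO and 3.26 and 2.85 in WT. *Sox12*, *Sox11*, *Sox4* and *Pou3f1* rose by 0.30 to 0.42. *Sox1*, a neural factor with 3 regions, was called lower, with 0.54 and 0.36 in KO and 1.22 and 1.03 in WT. It entered the test only through its WT libraries, so its call as a fall is not independent of that filter. *Sox2*, at 148 and 145 in KO and 162 and 176 in WT (-0.20, limma adjusted p = 0.0594), and *Foxd3*, at 3.64 and 3.88 in KO and 3.58 and 3.78 in WT, did not pass.

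All 7 intronless immediate early genes had a region and lay above the median gene in both genotypes, with a median IP over input of 2.42 in KO and 2.09 in WT. Of all coding members, 75.5% had a region, and 83.7% in KO and 82.1% in WT lay above the median gene. The lists here and below were not tested against these shares. *Jun* was at 3.72 and 3.42 in KO and 3.06 and 3.25 in WT, and *Ier5l* at 2.80 and 3.10 in KO and 3.18 and 3.43 in WT. Their input levels moved little: *Junb* (7.59 and 9.33 in KO, 6.65 and 6.81 in WT) and *Jun* (1.52 and 1.67 in KO, 1.25 and 1.09 in WT) rose, and the other 5 did not pass. Of the Frizzled receptors and Frat genes of Wnt signalling, 6 of 8 were members and each had a region. *Fzd7* rose (13.0 and 12.2 in KO, 10.1 and 10.5 in WT), *Fzd2* rose (2.08 and 2.71 in KO, 1.36 and 1.21 in WT) and *Fzd10* fell (2.39 and 2.33 in KO, 3.35 and 3.37 in WT).

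Of 7 listed imprinted intronless genes, 5 were members, each with a region and each above the median gene in both genotypes. Both traits held in most coding members, as given above. Besides *Mcts2* and *Ndn*, *Zrsr1*, a U2AF-related retrogene, rose (3.16 and 2.46 in KO, 1.72 and 1.75 in WT), and so did *Peg12* (1.62 and 1.34 in KO, 1.00 and 0.99 in WT), while *Mkrn3*, a ring finger gene, did not pass (2.96 and 2.70 in KO, 2.00 and 2.67 in WT). The 2 heat shock protein 70 genes were unlike these lists. *Hspa1a* and *Hspa1b* had no region, and their IP over input was above the median gene in WT (0.69 and 1.09, and 0.49 and 0.75) but not by the test in KO (-0.09 and 0.46, and 0.21 and 0.33). The difference itself did not pass for either gene. Both fell in input, *Hspa1b* to 1.24 and 1.27 in KO, against 2.04 and 2.12 in WT, and *Hspa1a* to 0.87 and 0.99 in KO, against 1.45 and 1.26 in WT. Like *Sox1*, *Hspa1a* entered the test only through its WT libraries. The 2 heat shock genes are near-identical copies.

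Of the nuclear noncoding RNAs, *Malat1*, a speckle RNA, had IP over input of 0.85 and 0.59 in KO and 0.16 and 0.05 in WT, and *Neat1*, the paraspeckle scaffold, 2.18 and 2.15 in KO and 1.76 and 1.70 in WT. Each had 2 regions, and neither changed in input (117 and 99.5 in KO and 125 and 105 in WT for *Malat1*). Names of ribosomal proteins split, with 2 of 6 above and 4 below the median gene in KO and likewise in WT, and 2 of the 6 rose in input. The pseudogenes *Rps15a-ps4* (-2.03 and -1.80 in KO, -2.36 and -2.55 in WT) and *Rplp2-ps1* (-1.12 and -0.83 in KO, -1.61 and -1.61 in WT) were low, and *Rps15a-ps4* had 0.21 units of coverage in the first input, against 190 and 214 in KO and 162 and 166 in WT. Of 85 loci with provisional names, 29 lay above and 38 below in KO and 27 above and 45 below in WT, with 14 rises and 13 falls in input. Zinc finger and BTB names gave 4 members, each with a region and above the median gene in both genotypes. Most coding members had a region, and most lay above the median gene. In input 1 of the 4 rose and 1 fell. The retrogene *Cstf2t* had a region and no change in input. No insulin receptor substrate, beta protocadherin or RNA polymerase III transcript of the lists was a member.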

How the data were processed

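The authors aligned reads with TopHat 1.1.3 to mm9, per the submitters' processing notes. The deposited window tables give, per the file headers, coverage per exon window (a signal scaled by an unstated factor per library), its gene median and a log2 winscore, which a recomputation matched in all 1510223 windows. The authors' RPKM table set the level filter. Its columns labelled KO input correlated at 0.724 and 0.734 with their input and 0.968 and 0.984 with their IP coverage, so levels were taken from input coverage.

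Gene and region values were log2 with a pseudocount of 1 and tested with limma 3.58.1 (lmFit, eBayes with trend, Benjamini-Hochberg over all features, R 4.3.3) on 2 KO and 2 WT libraries. Folds understate the change of low genes. Region ratios were centred on windows outside regions of 5971 genes. The fits were tested on simulated data. Windows run in genome order, so the strand came from RefSeq (GRCm38.p6). Named genes are those with the largest or smallest values, the smallest p or a place in a list. Those with the largest rises and falls in input were taken from called members whose KO and WT libraries did not overlap. Members and lists were chosen with earlier results of these data known. Same-numbered KO and WT libraries did not deviate together (r of -0.03 to 0.05).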

Additional observations from a re-analysis of the deposited data

Results flagged for a closer look

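One locus without a RefSeq entry, uc007mts.1, lay on opposite sides of the median gene in the 2 genotypes. Its whole-transcript IP over input was 0.75 and 0.83 in KO, against -1.16 and -0.65 in WT, a difference of 1.70 on the log2 scale that did not pass the limma test over all genes (adjusted p = 0.248) but did without either KO library, where the WT pair alone supplies the spread. Taken as the median of the windows, the difference was -0.55.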

How the results depend on the processing

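In simulated data with 2 libraries a genotype the fits found 97.0% of genes changed by 0.5 (log2) in input, but 37.0% of those changed by 1 in whole-transcript IP over input. In input, 12 unchanged genes were called beside 200 changed by 0.5, and 30 beside 200 changed by 1. The counts of coding members above the median gene kept within 1.5 times under each alternative but one, WT RPKM of at least 5, which left 69 in KO and 66 in WT because fewer genes were tested. That filter gave 82 members above in WT and 5113 calls over all genes. The median of the windows gave 54 members below, 5216 calls over all genes, and between genotypes 2 members higher and 60 calls in all, and RPKM of at least 5 gave 3 in all. The median of the windows also reversed *Gm5766* in WT (1.15) and, between genotypes, *Eid2* (-0.25), uc007mts.1 (-0.55) and an entry named by a protein accession (0.26). Regions above 0 numbered 98 in KO and 101 in WT among members (5247 and 5341 in all) at an RPKM of at least 5, 144 in KO and 144 in WT (5637 and 5696 in all) from a winscore of at least 3, and 15862 and 16883 in all from at least 1. Of the members' windows, 19.8% and 18.4% in KO and 13.6% and 17.8% in WT reached a winscore of 2. In multi-exon genes these shares were 21.7% and 19.3% in KO and 13.1% and 19.3% in WT. Past a winscore of 1 the members' shares were 32.2% in KO and 28.8% in WT, and past 3 they were 11.01% in KO and 8.17% in WT. Past 2 in KO the share was 20.3% at an input of at least 1 and 20.1% without provisional names.

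Members whose input rose and fell numbered 54 and 24 (1930 genes in all) with coverage of at least 5, 18 and 9 (762 in all) with no filter, and 182 and 82 (7965 in all) from the RPKM columns. Coding members numbered 39 and 9, 16 and 6, and 152 and 8 in the same settings. The RPKM columns gave differences above 0 for the falls of *D1Pas1* (1.97), *E130012A19Rik* (3.36), *Irf2bpl* (1.40), *Gm14511* (0.10) and *H2afx* (2.82), and those labelled KO follow the IP. Leaving out 1 library at a time, 46 to 75 members rose and 27 to 53 fell in input (1743 to 3144 genes in all), the fewest rises without WT library 1 and the fewest falls without WT library 2, with 36 to 55 rises and 15 to 21 falls of coding members. Between genotypes, 0 to 23 member regions were higher and 0 to 9 lower by winscore (0 to 1321 in all), 0 to 6 and 0 to 22 by direct ratio (0 to 2318 in all), and 0 to 64 members higher and 0 to 17 lower by whole transcript (0 to 2098 in all). Genes away from the median in WT numbered 5332 to 9182 in all. With the replicate block, 1 member region, that of *Gm5039*, was lower by winscore (65 in all), and no other count moved by over 1.5 times. Where no cause is given, it was not tested.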
